A study of Mus musculus with 6 samples.

Results

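Interferon-stimulated genes are the genes that cells switch on when an interferon binds its receptor. A set of 36 such genes was followed here, chosen by gene symbol from the 18493 genes of the deposited expression table, and all 36 were found. They comprise 3 transcription factors of the interferon response (Irf1, Irf7, Irf9), 4 nucleic acid sensors, 17 antiviral effectors, 3 genes of the PARP and DTX3L family, 5 guanylate-binding GTPases (GBPs), 3 immunity-related GTPases (IRGs) and the peptide transporter Tap1. RNA was measured in regulatory T (Treg) cells, CD4 T cells that restrain immune responses under the control of Foxp3. The cells were sorted as CD4+CD25+YFP+ from spleen and lymph nodes of untreated female C57BL/6 mice aged 7 weeks. The 3 WT libraries came from Foxp3cre/+ mice, and the 3 cKO libraries from Foxp3cre/+ TKTfl/fl mice, in which Cre made from the Foxp3 locus deletes Tkt. Tkt encodes transketolase, an enzyme of the non-oxidative pentose phosphate pathway. Both groups carry the Cre allele on a single X chromosome, so these females also hold Treg cells without Cre, and the YFP gate takes those with it. The study asked how Treg cell function depends on this pathway. Whether a library pools animals is not stated, so p-values cover only how far these libraries differ, which may be technical.

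Type I interferons bind the receptor of Ifnar1 and Ifnar2 and act through the kinases Jak1 and Tyk2. A complex that holds Stat2 and Irf9 then binds the interferon-stimulated response element (ISRE). Type II interferon, encoded by Ifng, binds Ifngr1 and Ifngr2, acts through Jak1 and Jak2, and works on its targets through the gamma-activated site (GAS). Antiviral effectors such as Mx1 and Isg15 are classical type I targets. The GBPs and IRGs, which attack the vacuoles of intracellular pathogens, respond strongly to type II interferon. T cells express many of these genes at a basal level without infection.

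RefSeq promoter windows (GRCm38.p6, 250 bases before to 50 after the start site) existed for 27 of the 36 genes. The core ISRE was searched as GAAA, any 2 bases and GAAA again, and the GAS as TTCNNNGAA, on both strands, with overlapping matches counted. An ISRE match lay in 15 of the 27 genes, against 3.99% of the 27025 genes with a window. It lay in 6 of 6 GTPases and in 7 of 14 antiviral effectors with a window. A GAS match lay in 9 of the 27, against 9.55% of all genes. A match describes these letters and does not show binding. The 140 bases before the start site are given below for 5 GTPases, 2 antiviral effectors and Irf1, chosen to show single, overlapping and neighbouring matches. They are written 5′ to 3′ on the strand of the gene, with ISRE and GAS matches in capitals.
Isg15: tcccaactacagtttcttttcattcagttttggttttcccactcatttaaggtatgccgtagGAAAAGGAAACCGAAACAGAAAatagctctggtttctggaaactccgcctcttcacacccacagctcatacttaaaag
Ifit1: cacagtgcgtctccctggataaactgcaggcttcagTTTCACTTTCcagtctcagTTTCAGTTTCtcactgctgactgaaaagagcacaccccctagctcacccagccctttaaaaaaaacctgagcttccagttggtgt
Gbp3: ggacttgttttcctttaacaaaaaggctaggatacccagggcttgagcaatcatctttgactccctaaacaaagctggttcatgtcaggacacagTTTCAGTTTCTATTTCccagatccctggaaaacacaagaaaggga
Gbp2: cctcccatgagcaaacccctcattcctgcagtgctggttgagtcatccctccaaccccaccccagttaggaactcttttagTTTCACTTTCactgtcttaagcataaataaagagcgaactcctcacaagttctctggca
Gbp7: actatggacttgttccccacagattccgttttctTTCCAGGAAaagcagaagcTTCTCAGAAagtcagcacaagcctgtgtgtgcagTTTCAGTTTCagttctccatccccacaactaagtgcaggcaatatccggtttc
Igtp: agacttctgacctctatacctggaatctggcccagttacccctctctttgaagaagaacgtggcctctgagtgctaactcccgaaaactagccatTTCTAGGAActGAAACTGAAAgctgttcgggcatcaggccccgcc
Irgm1: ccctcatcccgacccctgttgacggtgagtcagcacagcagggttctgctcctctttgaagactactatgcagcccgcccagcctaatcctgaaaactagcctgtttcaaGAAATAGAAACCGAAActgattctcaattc
Irf1: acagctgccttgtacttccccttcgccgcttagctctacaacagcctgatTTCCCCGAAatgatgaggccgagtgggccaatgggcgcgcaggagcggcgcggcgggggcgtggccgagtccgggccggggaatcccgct

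These windows lie at chr4:156200819-156200958 on the minus strand for Isg15, chr19:34640749-34640888 for Ifit1 and chr3:142559904-142560043 for Gbp3, the last 2 on the plus strand. Gbp2 (chr3:142620523-142620662), Gbp7 (chr3:142530196-142530335), Igtp (chr11:58199416-58199555) and Irf1 (chr11:53769874-53770013) lie on the plus strand. Irgm1 (chr11:48871421-48871560) lies on the minus strand. Isg15 holds a run of 3 overlapping ISRE matches from 78 to 57 bases before the start, given as -78 to -57. Gbp3 and Irgm1 hold overlapping pairs, and Ifit1 holds a spaced pair. Gbp7 and Igtp hold GAS matches next to an ISRE match, while Irf1 holds a GAS match and no ISRE match.

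The libraries held 17180577 to 18215168 estimated reads, and 12887 genes passed the filter on low counts. All 36 interferon-stimulated genes passed it. As a check of the labels, Tkt stood at 126, 97.1 and 121 CPM (reads scaled to the library total) in WT and at 52.5, 44.8 and 31.9 CPM in cKO. All cKO values lay below all WT values, with an adjusted p of 0.0516 in edgeR's quasi-likelihood test. The WT and cKO means were 598 ± 122.7 and 620.4 ± 58.9 CPM for Foxp3 and 755 ± 109.8 and 757 ± 85.7 CPM for Il2ra, which encodes CD25 (SD, n = 3). Of the 8 Treg markers listed, none was called by edgeR, against 0.21% of all genes. In the same test 2 of them, Nrp1 and Ikzf2, had an unadjusted p under 0.05 and lay lower in cKO without overlap. Their log2 fold changes were -0.31 and -0.21. Of all genes, 5.01% were lower in cKO at that p, and 8.12% lay lower without overlap. WT2 and cKO1 were highest on the first principal component, at 25.4 and 33.3. The library cKO2 lay between them and the rest, at 8.11, and the others lay from -25.9 to -18.4. Most results that rest on WT2 and cKO1 are therefore also given without these libraries, while cKO2 was kept in the fit without both.

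The genes of the set spanned a wide range of basal levels in Treg cells. Per gene length, in FPKM (reads scaled to gene length and library total, from the authors' values), the mean over the 6 libraries ran from 1.02 for Ifi44 to 277 for Samhd1, with a median of 32.0. Samhd1, which degrades deoxynucleotides and so limits reverse transcription, had the highest level. Irf1 followed at 173 FPKM, Tap1 at 109.7 FPKM, Igtp at 93.3 FPKM, the sensor Zbp1 at 88.1 FPKM and Gbp6 at 83.0 FPKM. The antiviral genes Mx1, Rsad2 and Ifi44 were among the lowest, at 8.24, 3.29 and 1.02 FPKM. The median over the 8 GTPases was 40.6 FPKM and over the 17 antiviral effectors 29.5 FPKM.

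**Figure D1:**
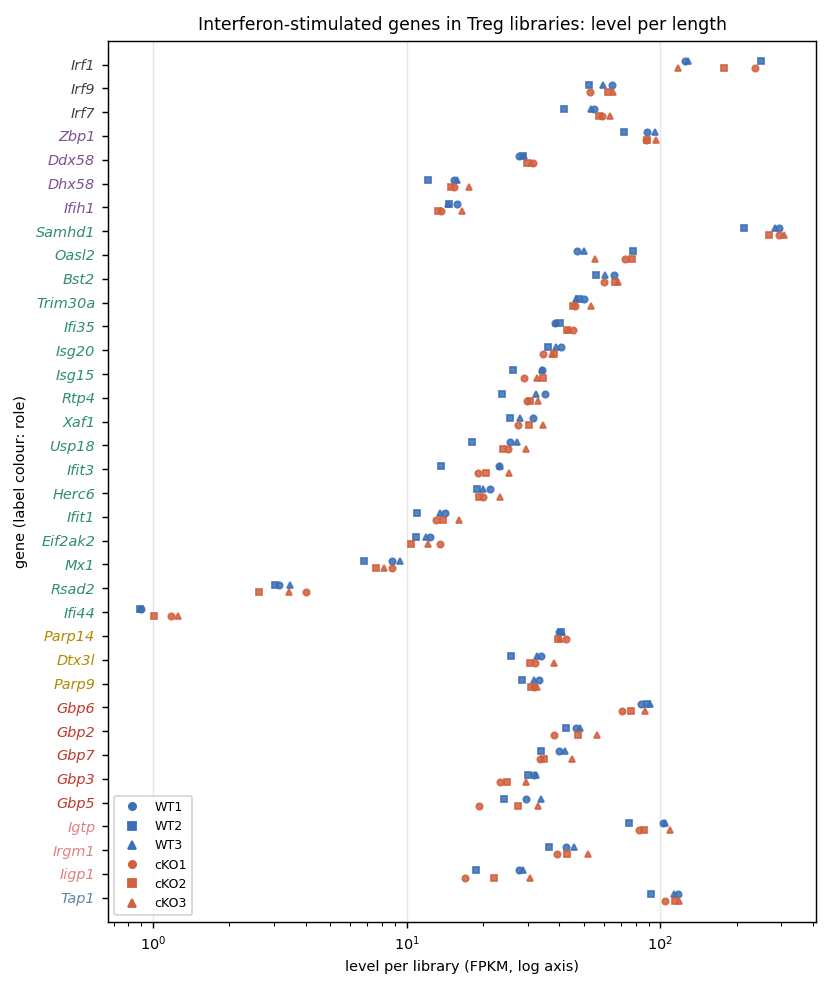
Level of each interferon-stimulated gene in each library, in FPKM on a log axis, with WT libraries in blue and cKO libraries in orange and the marker shape giving the replicate. Genes are ordered by role and level, from Ifi44 at a mean of 1.02 FPKM to Samhd1 at 277 FPKM, and the colours overlap in most rows.

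No interferon-stimulated gene passed the test between cKO and WT. At a Benjamini-Hochberg adjusted p under 0.05, edgeR called 0 of the 36, against 27 of 12887 genes (0.21%), of which 1 was higher in cKO (0.00776%) and 26 were lower (0.202%). At an unadjusted p under 0.05 there were 2 of 36, Gbp3 and Irf7, against 7.69% of all genes. DESeq2 and limma-voom also called 0 of the 36. The fitted log2 fold changes, cKO over WT, ran from -0.28 to 0.35 with a median of 0.07, and the median over all genes was 0.004. Of the 36 values, 27 lay above 0 and 9 below, where 51.4% of all genes lay above 0. Without WT2 or without cKO3 there were 21 above and 15 below, and without both WT2 and cKO1 there were 20 above and 16 below. The 95% interval of the fold change lay within 2-fold in either direction for all 36 genes, and within 1.5-fold for 32. Among all genes these shares were 82.2% and 64.2%. The 4 genes with wider intervals were Irf1, Oasl2, Ifi44 and Iigp1.

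**Figure D2:**
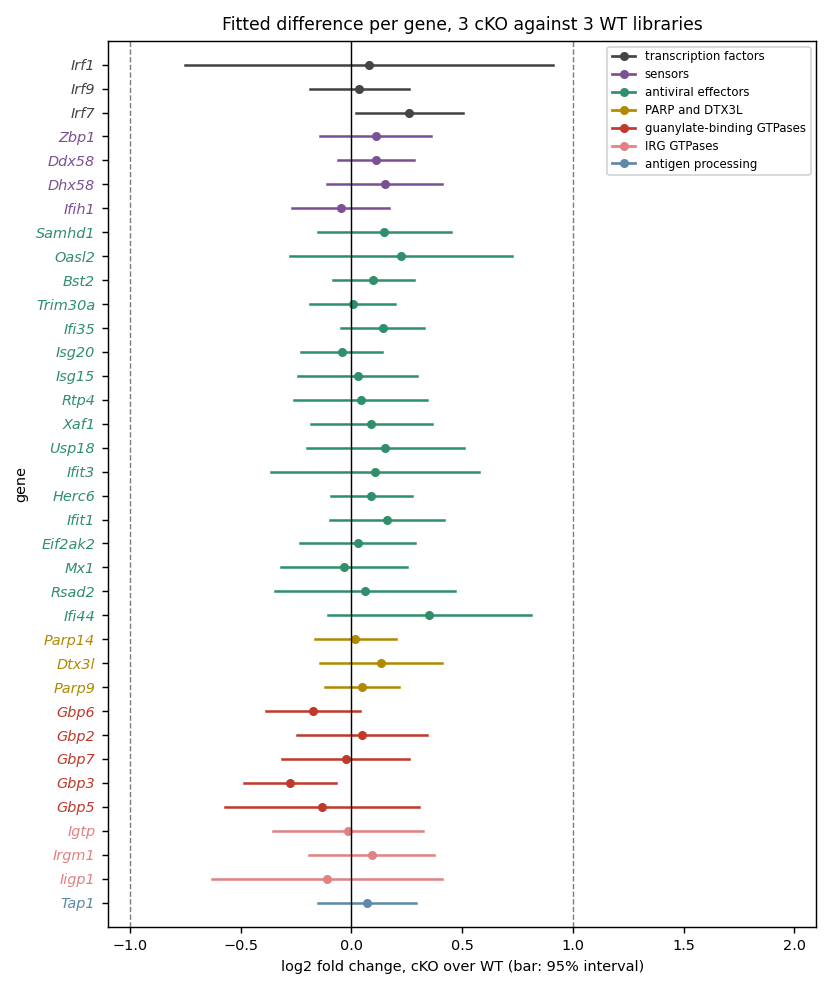
Fitted log2 fold change of each gene, cKO over WT, as a point with its 95% interval as a bar, coloured by role, and dashed lines at a 2-fold difference. All 36 intervals lie between the dashed lines, and only those of Gbp3 and Irf7 leave out 0 before adjustment.

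Among the transcription factors, Irf7, which amplifies type I interferon production, had the lowest p. It stood at 99.7, 79.0 and 97.2 CPM in WT and at 111, 104.5 and 115 CPM in cKO. The groups did not overlap, which held for 3 of the 36 genes against 14.2% of all genes. Irf7 and Ifi44 were the 2 higher in cKO, against 6.1% of all genes, and Gbp3 was the 1 lower, against 8.12%. The log2 fold change of Irf7 was 0.26 ± 0.10 (SE; 95% interval 0.02 to 0.50), with an adjusted p of 0.599 in edgeR's test. Without WT2, its lowest library, Irf7 had 0.16, with an unadjusted p of 0.0531 in edgeR's test, and it also had 0.16 without both WT2 and cKO1. Irf9, the DNA-binding part of the type I complex, had means of 139.9 ± 11.3 CPM in the WT and 143.5 ± 12.2 CPM in the cKO libraries (SD, n = 3).

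Irf1, a transcription factor induced by interferon and also by NF-kappaB signals, varied more between libraries than any other gene of the set. It stood at 264, 547 and 272 CPM in WT and at 519, 379.9 and 246 CPM in cKO. WT2 and cKO1 were highest, at over 2-fold the lowest library of their own group, and the groups overlapped widely. Its log2 fold change was 0.08 ± 0.35 (SE; adjusted p = 0.992 in edgeR's test). It was 0.51 without WT2, -0.21 without cKO1 and 0.22 without both. The NF-kappaB target Tnfaip3 showed the same order of libraries at the top, at 4898 CPM in WT2 and 4612 CPM in cKO1 against 1153 to 2332 CPM in the other libraries. Nfkbia was also highest in WT2 and cKO1, at 972 and 817 CPM. Hspa1a and Fos were lowest there, Hspa1a at 12.7 and 5.35 CPM and Fos at 568 and 325 CPM. The cause of the spread of Irf1 was not tested. Oasl2, an oligoadenylate synthetase-like protein named here after its values were seen, was high in WT2, cKO1 and cKO2, as Irf1 was. It stood at 183, 306 and 197 CPM in WT and at 287, 296 and 217 CPM in cKO. The log2 fold change was 0.22 ± 0.21 (SE), and the adjusted p in edgeR's test was 0.915. Without WT2 it was 0.49 (edgeR's adjusted p 0.337, unadjusted p 0.0123), and without both WT2 and cKO1 it was 0.43 (adjusted p 0.355, unadjusted p 0.0245).

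The B cell and myeloid marker sums varied between libraries in a like way, while those of the other cell types did not. The summed level of the 9 B cell markers was 54.9, 98.5 and 59.4 CPM over the WT libraries and 116.5, 126.9 and 47.9 CPM over the cKO libraries. The 10 myeloid markers summed to 68.4, 100.3 and 69.5 CPM in the WT and to 102.5, 138.5 and 73.2 CPM in the cKO libraries. Both sums were highest in WT2, cKO1 and cKO2, the libraries with the highest Irf1 and Oasl2. No marker of either list was at 0 in all libraries, and only S100a9 was at 0 in any. Siglech defines plasmacytoid dendritic cells, the main producers of type I interferon. It stood at 0.166, 2.21 and 0.169 CPM in WT and at 0.814, 3.11 and 0 CPM in cKO. Siglech too was highest in WT2, cKO1 and cKO2, on 0 to 57 estimated reads per library. The 8 markers listed for plasmacytoid dendritic cells summed to between 214.6 and 270.2 CPM in WT libraries and 259.5 and 279.8 CPM in cKO libraries. Most of this came from Pacsin1, Bst2, Irf8 and Ccr9, of which Bst2 is itself in the set. Klk1 and Cox6a2 stayed at or below 0.600 CPM and were at 0 in some libraries. The 4 erythroid markers summed to 125 CPM in cKO1 and to 0.277 to 4.07 CPM elsewhere. The 7 CD8 T and NK cell markers summed to between 34.9 and 38.7 CPM in WT libraries and 31.3 and 37.3 CPM in cKO libraries. Within that list Nkg7, a granule protein of cytotoxic cells, stood at 21.4, 15.5 and 18.6 CPM in WT and at 9.83, 14.1 and 11.2 CPM in cKO, without overlap. Its adjusted p was 0.304 in edgeR's test (log2 fold change -0.66 ± 0.17 SE), and Cd8a and Cd8b1 had log2 fold changes of 0.55 and 0.23. The part of such cells in the interferon values was not tested, and in sorted bulk RNA fewer cells of a type and less RNA per cell cannot be told apart.

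The sensors of viral nucleic acid did not pass the test either. Zbp1, which senses Z-form nucleic acid, stood at 148, 125 and 162 CPM in WT and at 155, 149.5 and 165 CPM in cKO. Ddx58, which encodes the RNA sensor RIG-I, stood at 136, 148 and 144 CPM in WT and at 162, 147 and 152 CPM in cKO. Dhx58, which encodes the RIG-I regulator LGP2, had the largest difference of the 4 over all libraries, at 36.4, 30.1 and 37.7 CPM in WT and at 38.0, 35.7 and 41.9 CPM in cKO. The log2 fold changes of the 4 sensors ran from -0.05 for Ifih1 (the RNA sensor MDA5) to 0.15 for Dhx58, and WT and cKO libraries overlapped for each. Without WT2 the value of Dhx58 was 0.06 and that of Ddx58 0.14.

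The antiviral effectors lay close together in cKO and WT. Of the 17, none was called or had an unadjusted p under 0.05, 15 had log2 fold changes above 0, and the median was 0.09. Without WT2, 11 lay above 0 and the median was 0.02, without cKO3 these were 12 and 0.03, and without both WT2 and cKO1 they were 10 and 0.02. Ifi44, an interferon-induced protein of low level here, had the lowest p and the largest log2 fold change. It stood at 2.55, 2.69 and 2.59 CPM in WT and at 3.55, 2.94 and 3.51 CPM in cKO, on 45 to 63 estimated reads per library. The groups did not overlap, and the log2 fold change was 0.35 ± 0.20 (SE; adjusted p = 0.785 in edgeR's test).

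Samhd1 stood at 1155, 854 and 1124 CPM in WT and at 1173, 1069 and 1231 CPM in cKO. WT2 was the lowest library and the others lay close to each other. Isg15, the ubiquitin-like modifier that is attached to proteins after interferon exposure, stood at 24.7, 19.7 and 24.8 CPM in WT and at 21.9, 25.1 and 23.6 CPM in cKO. Its log2 fold change was 0.03 ± 0.11 (SE; 95% interval -0.24 to 0.30). Mx1, which encodes an interferon-induced GTPase, stood at 30.0, 24.6 and 31.8 CPM in WT and at 31.0, 25.7 and 27.7 CPM in cKO. Bst2, or tetherin, which holds budding virions at the cell surface, stood at 48.0, 42.7 and 44.6 CPM in WT and at 46.1, 49.1 and 49.7 CPM in cKO. The WT and cKO values of these 3 genes overlapped.

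The remaining antiviral effectors had log2 fold changes from -0.04 for the exonuclease Isg20 to 0.16 for the RNA-binding protein Ifit1. Usp18, the protease that removes Isg15 and restrains the type I receptor, had 0.15 ± 0.15 (SE). Eif2ak2, the kinase PKR that halts translation on sensing double-stranded RNA, had 0.03 ± 0.11, and Rsad2, or viperin, had 0.06 ± 0.17. Ifit3 varied most within WT after Oasl2, from 27.7 CPM in WT2 to 46 CPM in WT3.

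The ADP-ribosylation genes Parp9, Parp14 and the ubiquitin ligase Dtx3l, a partner of Parp9, did not pass the test. Parp14 stood at 288, 308 and 299 CPM in WT and at 324, 289 and 292 CPM in cKO. Dtx3l stood at 174, 138 and 169 CPM in WT and at 173, 159.7 and 195 CPM in cKO. Their log2 fold changes were 0.05 for Parp9, 0.02 for Parp14 and 0.13 for Dtx3l. Tap1, which carries peptides into the endoplasmic reticulum for loading on MHC class I, stood at 340.5, 279.8 and 331 CPM in WT and at 318, 335 and 345 CPM in cKO. WT2 was lowest and the groups overlapped, with a log2 fold change of 0.07 ± 0.09 (SE).

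None of the 8 GTPases was called. Over all libraries 6 of the 8 had log2 fold changes below 0, with a median of -0.07. This count rested on single libraries: without cKO1 only Gbp3 and Gbp6 lay below 0 (median 0.04), without WT3 or cKO2 4 of 8 did (medians 0.01 and -0.03), and without cKO3 all 8 did (median -0.21). Without both WT2 and cKO1 the count was again 6, with a median of -0.07. Gbp3 and Gbp6 lay below 0 in each of these fits. Gbp3 had the lowest p of all 36 genes. It stood at 81.9, 80.9 and 83.6 CPM in WT and at 62.6, 64.8 and 75.9 CPM in cKO. Each cKO value was below all WT values, and the WT libraries differed by less than 3 CPM. The log2 fold change was -0.28 ± 0.09 (SE; 95% interval -0.49 to -0.07), and the adjusted p was 0.463 in edgeR's test. Its adjusted p stayed above 0.05 in all 15 alternative analyses, between 0.314 and 0.950.

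Gbp6, the most abundant GBP per length, stood at 257, 262 and 268 CPM in WT and at 223, 214 and 261 CPM in cKO. In edgeR's test it gave -0.17 ± 0.09 (SE) on the log2 scale, with an adjusted p of 0.776, and without cKO3 it gave -0.26. The third cKO library lay within the WT range. Gbp2 stood at 112, 106 and 116 CPM in WT and at 96.2, 114.5 and 135 CPM in cKO, with cKO1 lowest and cKO3 highest. Gbp5, which promotes inflammasome assembly, had the same extremes within cKO, at 60.2, 83.0 and 98.0 CPM, against 88.0, 75.2 and 101 CPM in WT. Gbp7 had a log2 fold change of -0.03 ± 0.12 (SE).

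Gbp5, Gbp7, Gbp3 and Gbp2 lie side by side on chromosome 3 between positions 142496934 and 142638008 (mm10), and Gbp6 lies on chromosome 5 at 105270702 to 105295871. The GBPs are a family of similar genes, and the estimated reads of all 8 GTPases were fractional in at least 5 of the 6 libraries. Fractional reads were not particular to them: 27 of the 36 genes had them in some library, and Foxp3 and Il2ra had them in all 6. Whether reads were split between similar copies was not tested, so the value of a single family member is uncertain.

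Among the IRGs, Igtp, or Irgm3, stood at 203, 156 and 209.6 CPM in WT and at 171, 173.5 and 218 CPM in cKO. Irgm1, a regulator of the other IRGs, stood at 99.0, 87.1 and 107 CPM in WT and at 94.9, 97.3 and 120.1 CPM in cKO. Iigp1 (Irga6), which disrupts the membranes of parasite vacuoles, stood at 80.9, 57.3 and 83.4 CPM in WT and at 51, 65.4 and 88.8 CPM in cKO. WT2 was the lowest WT library and cKO1 the lowest cKO library for all 3, and cKO3 was the highest of the 6. Their log2 fold changes were -0.02, 0.09 and -0.11, each smaller than its SE.

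**Figure D3:**
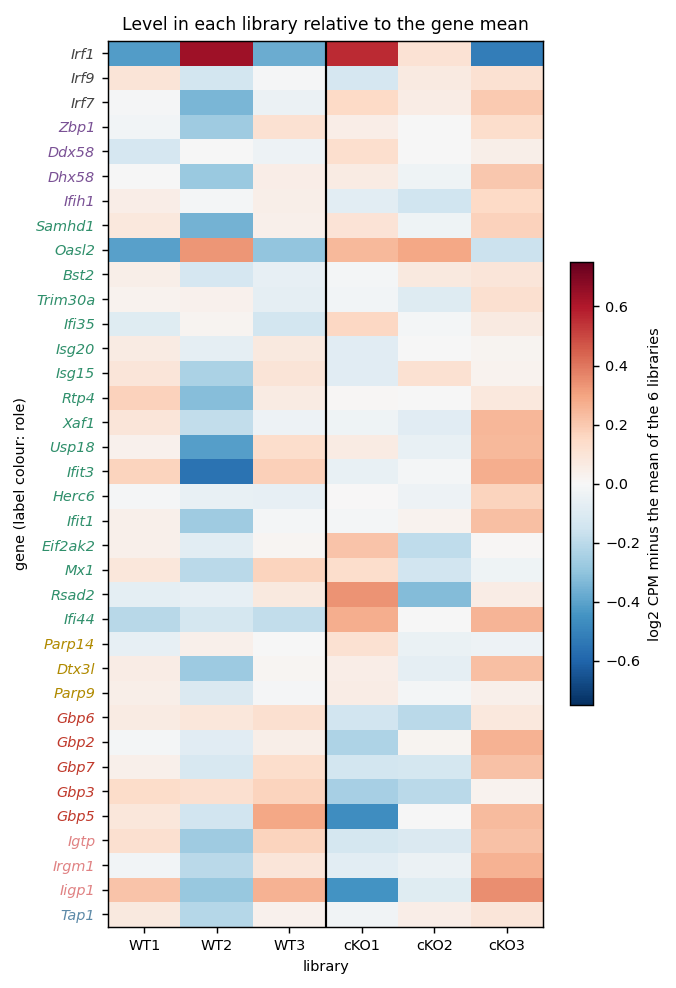
Level of each gene in each library as log2 CPM minus the mean of the 6 libraries, with red for higher and blue for lower values, genes in rows by role and libraries in columns. WT2 is blue and cKO3 red in most rows, Irf1 and Oasl2 are red in WT2 and cKO1, and Gbp5 and Iigp1 are deepest blue in cKO1.

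The libraries of each group differed among themselves. The lowest of the 6 values was found in WT2 for 18 of the 36 genes, against 25.9% of all genes. The highest was found in cKO3 for 20 of the 36, against 16.8% of all genes. For 32 of the 36 genes the range within WT exceeded the difference between the group means, as it did for 82.1% of all genes. The mean log2 CPM over the 36 genes was 6.41, 6.27 and 6.43 in WT and 6.41, 6.36 and 6.51 in cKO. The difference of 0.06 ± 0.07 (SE) was smaller than the spread within either group. The median log2 fold change of 0.07 became 0.01 without WT2, 0.03 without cKO3 and 0.02 without both WT2 and cKO1.

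Set against the antiviral effectors, the GTPases were lowest in cKO1. The mean log2 CPM of the 8 GTPases was 7.01, 6.82 and 7.09 in WT and 6.69, 6.84 and 7.14 in cKO. That of the 17 antiviral effectors was 5.68, 5.52 and 5.67 in WT and 5.75, 5.65 and 5.78 in cKO. GTPases minus antiviral effectors gave 1.32, 1.30 and 1.41 in WT and 0.95, 1.19 and 1.35 in cKO. The libraries cKO1 and cKO2 lay below all WT libraries, and cKO3 lay within their range. The mean difference between groups was -0.18 ± 0.12 (SE). From the fitted log2 fold changes it was -0.17, and this became -0.07 without cKO1, -0.28 without cKO3 and -0.10 without both WT2 and cKO1. Since both groups of genes were chosen with earlier results known, no p is given for it.

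**Figure D4:**
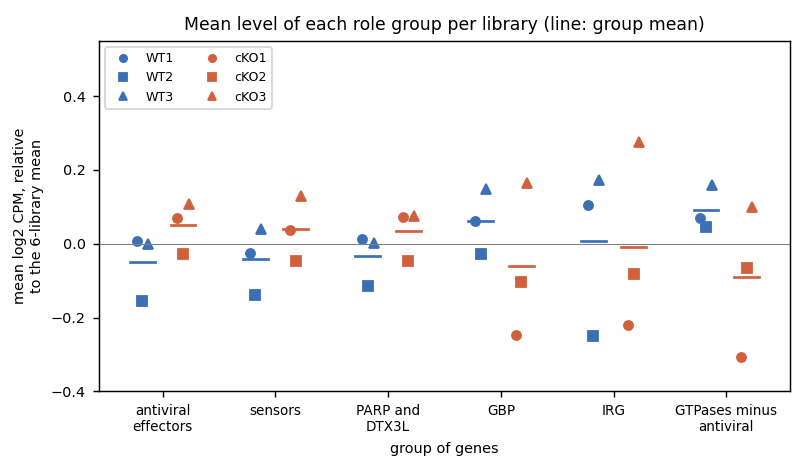
Mean log2 CPM of each role group per library, relative to the mean of the 6 libraries, with a line at the mean of 3 WT (blue) or 3 cKO (orange) libraries; the last column is GTPases minus antiviral effectors. The GBP and IRG points spread widely within cKO, with cKO1 lowest and cKO3 highest, while the antiviral points of both groups overlap.

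The ligand, receptors and signal transducers upstream of these genes were read from the same fit. Ifng, encoding interferon gamma, was the only ligand that passed the filter. It stood at 12.6, 18.2 and 11 CPM in WT and at 4.54, 7.69 and 6.02 CPM in cKO. The groups did not overlap, and edgeR's test gave a log2 fold change of -1.19 ± 0.25 (SE) and an adjusted p of 0.179, so it was not called. Without both WT2 and cKO1 the log2 fold change was -0.78. DESeq2 called it, with an adjusted p of 0.00306. Ifnk was at 0 in 4 libraries and at most 0.174 CPM in the others; the type I and III ligands besides it were not analysed here.

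The receptors Ifnar1, Ifnar2, Ifngr1 and Ifngr2 did not pass the test. Ifnar1 stood at 246, 279 and 235 CPM in WT and at 278, 255 and 269 CPM in cKO. Ifnar2 stood at 113.5, 99.3 and 108 CPM in WT and at 103, 111 and 106 CPM in cKO. Both overlapped between the groups. Ifngr1 stood at 184, 267 and 197 CPM in WT and at 186, 166 and 164 CPM in cKO, and WT2 was far above the rest. The log2 fold change was -0.33 ± 0.15 (SE), and edgeR's adjusted p was 0.669. Without WT2 it was -0.15, and without both WT2 and cKO1 -0.21. Ifngr2 was highest in WT2 too, at 61.4, 122.5 and 63.7 CPM in WT and at 95, 90.2 and 70.5 CPM in cKO. Jak1 stood at 795, 809 and 814 CPM in WT and at 930.1, 806 and 875 CPM in cKO. Stat2 stood at 132.5, 124 and 137 CPM in WT and at 137, 127.5 and 144 CPM in cKO. The groups overlapped for both genes.

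The feedback inhibitor Socs1 stood at 73.7, 58.2 and 74.9 CPM in WT and at 56, 77.5 and 69.8 CPM in cKO. Socs3, with the lowest p of the 8 feedback genes tested, stood at 243, 291 and 283 CPM in WT and at 229, 245 and 235 CPM in cKO. Only cKO2 reached the WT range, and the adjusted p of Socs3 in edgeR's test was 0.661 (log2 fold change -0.20 ± 0.09 SE). Among 14 tested factors that act upstream of interferon production, Irf5 had the lowest p. It stood at 18.7, 14.1 and 18.7 CPM in WT and at 12.2, 14.0 and 11.3 CPM in cKO. The groups did not overlap, as for 8.12% of all genes that lay lower in cKO, but WT2 and cKO2 nearly touched. The difference was -0.46 ± 0.15 (SE) on the log2 scale, with an adjusted p of 0.464 in edgeR's test.

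**Figure D5:**
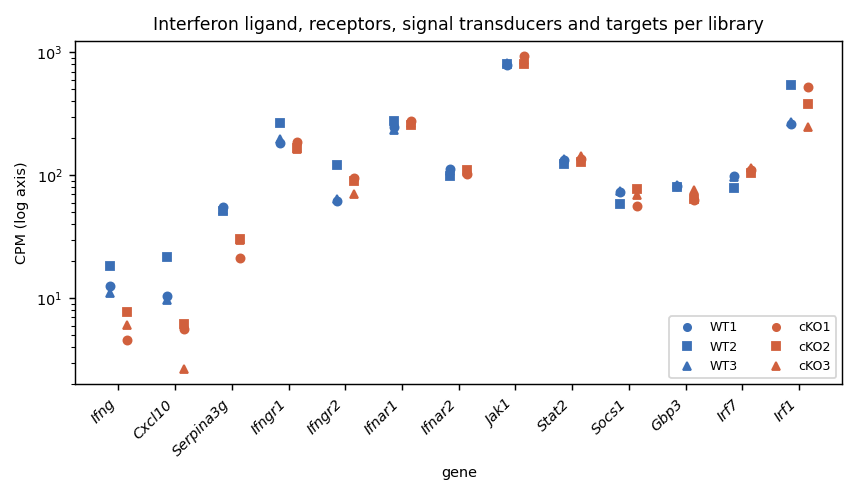
CPM on a log axis of interferon gamma, its targets Cxcl10 and Serpina3g, the receptors, signal transducers and selected targets in each library, WT in blue and cKO in orange. The cKO points lie below the WT points for Ifng, Cxcl10, Serpina3g and Gbp3 and above them for Irf7, and they overlap for the receptors and Stat2.

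Interferon-induced genes outside the set were taken from lists that were also chosen with earlier results known. Of 61 tested type I targets, 0 were called by edgeR, against 0.21% of all genes, and 2 had an unadjusted p under 0.05 (3.28%, against 7.69% of all genes), with a median log2 fold change of 0.06. Oasl1, a translational inhibitor of Irf7, had the lowest p. It stood at 11.6, 10.3 and 10.2 CPM in WT and at 16.7, 12.5 and 14.4 CPM in cKO, without overlap. Its log2 fold change was 0.44 ± 0.14 (SE), and edgeR's adjusted p was 0.431.

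Of 30 tested type II targets, 0 were called by edgeR, and the median log2 fold change was -0.04. At an unadjusted p under 0.05, 7 were lower and 1 was higher in cKO, against 5.01% and 2.68% of all genes. The 1 higher was Tgtp1, with a log2 fold change of 0.33 ± 0.11 (SE). Of the GBPs in this list, Gbp4, Gbp8 and Gbp10 had log2 fold changes of -0.17, -0.20 and -0.11, and Gbp9 had 0.06. Serpina3g, a serine protease inhibitor of activated T cells, stood at 55, 51.6 and 52.1 CPM in WT and at 21.4, 30.4 and 29.8 CPM in cKO. The groups were far apart, and the log2 fold change was -0.96 ± 0.14 (SE), with an adjusted p of 0.0560 in edgeR's test, just above the threshold of 0.05. It was called by DESeq2 (adjusted p = 8.2e-07), with no filter on low counts (adjusted p = 0.0419) and without both WT2 and cKO1 (adjusted p = 0.0272). By contrast, limma-voom called no gene of the pathway lists, nor did edgeR with the replicate block or with any single library left out. The lowest adjusted p of these lists in edgeR's test was 0.204 with the block, and 0.0792 to 0.245 with a library left out. Cxcl10, the chemokine that binds Cxcr3, was named after its values were seen. It stood at 10.5, 21.7 and 9.74 CPM in WT and at 5.58, 6.21 and 2.67 CPM in cKO, with WT2 highest and no overlap. Its log2 fold change was -1.53 ± 0.41 (SE), and the adjusted p was 0.313 in edgeR's test and 0.0106 with DESeq2. The size of this difference rests in part on WT2, and a fit without WT2 is not given for Cxcl10. The log2 fold changes of the 8 GTPases ran from -0.28 to 0.09; the difference of Serpina3g and Cxcl10 from them was not tested.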

How the data were processed

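RNA from 3 WT and 3 cKO sorts was sequenced; sample titles gave the groups and replicate numbers. The authors deposited estimated counts per gene, not normalized, and a second set of values that behave as FPKM (per length and depth), judged from the values and from transcript lengths; 45.4% to 46.3% of the estimated counts of a library were not whole to within 0.01. Per the submitters' processing notes the build was mm10, and the tools listed, with no role or order, were DESeq2 1.16.1, featureCounts 1.5.0-p3 and HISAT2 2.0.5. Gene positions came from RefSeq GRCm38.p6, the same build, and all 36 genes matched by Entrez identifier.

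Estimated counts were rounded. In R 4.3.3, genes passing filterByExpr of edgeR 4.0.16 (minimum count 10) were scaled by TMM and tested with the quasi-likelihood F test, two-sided, with group as the only term; genes were called at a Benjamini-Hochberg adjusted p under 0.05, taken over every tested gene. SEs come from the F statistic, and intervals use the fitted degrees of freedom. CPM values are scaled by TMM, and mean log2 CPM uses a prior count of 2. The alternatives were DESeq2 1.42.0, limma-voom (limma 3.58.1), other scalings and filters, a replicate block, each library left out, and WT2 and cKO1 left out together. The code was tested on simulated counts.

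The genes, the lists and that last alternative were chosen with earlier results of these data known. Values per library are given for the gene with the lowest p, the highest FPKM or the largest change in each role, for genes whose groups did not overlap, and for 7 textbook genes. In the pathway lists they are given for the main receptors, transducers and Ifng, and for the gene with the lowest p of each list. A few genes named after their values were seen are marked so. Values of Ifit3, Gbp5, Tnfaip3, Nfkbia, Hspa1a, Fos and single cell type markers are given outside this rule. One gene that this rule names is not reported here.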

Additional observations from a re-analysis of the deposited data

How the results depend on the processing

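No alternative called any of the 36 genes; their adjusted p-values were at least 0.314. Over 15 alternatives the median log2 fold change stayed between 0.01 and 0.09, and GTPases minus antiviral effectors between -0.28 and -0.07. Of the 15 genes at least 1 SE from 0, all kept their sign in these alternatives. The 540 values of all 36 genes held 40 sign changes, all of them in the genes within 1 SE of 0. Over all genes, 27 calls became 177 with DESeq2, 43 with no filter, 71 without both WT2 and cKO1, and 0 to 30 with a library left out: 0 (681 to 909 at an unadjusted p under 0.05) without WT1, WT3, cKO1, cKO2 or cKO3, and 30 without WT2. The pathway list went from 0 calls to 3 with DESeq2, 1 with no filter and 1 without both WT2 and cKO1.

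With the replicate block, edgeR called 0 genes in all (811 at an unadjusted p under 0.05), and 0 of the 36. Same-numbered libraries had correlations of deviations of -0.278, 0.062 and 0.261, and WT2 correlated best with cKO1 (0.315). The same-numbered values differed in sign. With so few libraries per group they cannot decide whether the numbers pair the libraries. Tkt was called by DESeq2, with library size only, with either other filter and without both WT2 and cKO1. Depth limits Ifi44 most, at 45 to 63 estimated reads a library, whereas Rsad2, the next lowest, had at least 182.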
